A study of Rattus norvegicus with 18 samples.

Results

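The nucleus pulposus, the soft centre of the disc between the vertebrae, was compared between old and young rats: 3 input RNA libraries at 20 months of age against 3 at 2 months. These 6 libraries are part of 18 in the series, which asked how N6-methyladenosine (m6A), a methyl mark on RNA bases, changes with age and disc degeneration. All groups were rat nucleus pulposus with no treatment named in the labels. The labels name neither strain nor sex. The remaining 3 of the 9 input libraries, from rats of 10 months, entered the same statistical fit and are given as a middle value. The other 9 libraries, made after immunoprecipitation with an m6A antibody, were not analysed here. Of 18923 genes in the table, 11708 were tested. They reached a value of 1 FPKM, which counts fragments by transcript length and library size, in no fewer than 3 of the 9 input libraries.

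Nucleus pulposus cells of young rats derive from the notochord and carry its keratins and its transcription factor brachyury (Tbxt). They live without blood vessels at low oxygen and fill the space around them with type II collagen and the sulfated proteoglycan aggrecan, which holds water under load. Making that matrix takes a large secretory apparatus, from sugar and sulfate supply through folding, glycosylation and vesicle transport to matrix-cutting enzymes at the surface. With age and degeneration the tissue is known to lose water and to become more fibrous.

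The label of the tissue was checked against its markers. At 2 months Krt19 stood at 5129, 5187 and 5488 FPKM, Tbxt at 2377, 2351 and 2379 FPKM and the carbonic anhydrase gene Ca3 at 9903, 9924 and 10149 FPKM. At 20 months Tbxt stood at 2269, 2185 and 2097 FPKM and Ca3 at 10404, 10351 and 9329 FPKM, so that these markers were high at both ages. Of 26 listed marker genes, 5 were below the filter: Foxf1, Pax1 and the notochord genes Foxa1, Foxa2 and Shh. None of these 5 exceeded 0.526 FPKM (Foxa1) in any library, and Shh was listed at 0 in 8 of 9. The endothelial and pericyte list (12 genes) summed to 52.4 to 53.6 FPKM at 2 months. Its vessel-defining genes Cdh5 and Kdr were below 0.143 FPKM in every library, but at 2 months Vwf was at 0.276 and Flt1 at 27.0 FPKM. The macrophage list (16 genes) summed to 25.2 to 26.6 FPKM, with Ptprc and C1qa at or below 0.143 FPKM but Csf1r at 7.04 and Cd68 at 4.32 FPKM.

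The 20-month libraries differed from the 2-month ones in more than single genes. Their commonest read length was 141 bases against 132 bases, 80.1 to 80.9% of their bases lay on listed transcripts against 85.7 to 86.1%, and they held 3.53 to 4.90 gigabases against 4.77 to 5.04. No 20-month library had the read length of the other ages, so that age and whatever set these libraries apart cannot be told apart in any result below. The median gene lay 0.20 lower at 20 months on the log2 scale in FPKM as deposited. Each comparison is therefore also given after median-of-ratios scaling, which brings the median gene to −0.0020. Whether each library of an age is a different animal is not stated in the labels, and every p-value here reflects only how far these libraries spread, which may be technical. In tissue RNA, fewer cells of a type and less RNA per cell cannot be told apart.

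Of the 11708 tested genes, 7986 (68.2%) were called as deposited at an adjusted p under 0.05 by limma: 2175 (18.6%) were higher and 5811 (49.6%) lower at 20 than at 2 months. All libraries of 1 age lay beyond all of the other in 2271 genes (19.4%) upward and 5967 (51.0%) downward. After scaling 7298 (62.3%) were called, of which 3630 (31.0%) were higher and 3668 (31.3%) lower. Under both scalings 2175 genes (18.6%) were called higher, 3668 (31.3%) were called lower, and 55 (0.47%) were called in opposite directions. A change of at least 2-fold was called upward in 328 genes (2.8%) and downward in 375 (3.2%) as deposited, and in 519 (4.43%) and 221 (1.89%) after scaling. A gene is said below to have risen or fallen where its call held under both scalings, unless a scaling is named. Log2 differences are of FPKM + 1 as deposited with the standard error of the fit, and understate the change of low genes.

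**Figure D1:**
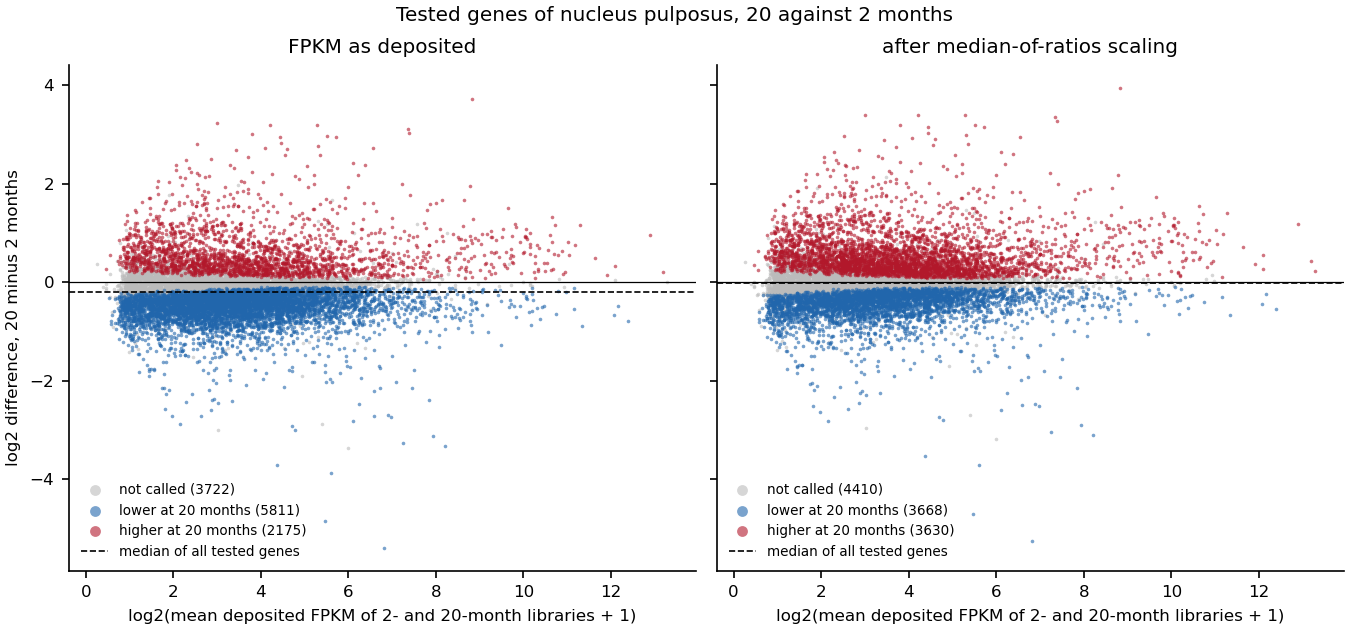
Log2 difference of 20 minus 2 months (vertical) against the log2 of the mean deposited FPKM + 1 (horizontal) for the 11708 tested genes, as deposited (left) and after median-of-ratios scaling (right). Points are genes coloured by their limma call, and the dashed line is the median gene, which sits at −0.20 on the left and at −0.0020 on the right, where higher and lower calls are nearly even (3630 and 3668).

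The largest single changes are given first, leaving aside genes encoded in the mitochondrion, ribosomal protein genes, small RNAs and genes with placeholder names. Ptgds and Tmsb10 fell furthest among the rest, while several mitochondrially encoded genes, given as a group below, fell by as much or more. Ptgds, which encodes a prostaglandin D synthase that also carries lipids, stood at 119, 120 and 119 FPKM at 2 months and at 19.9, 18.6 and 11.3 FPKM at 20 months, a log2 difference of −2.81 ± 0.16. The entry named Tmsb10 went from 209, 210 and 197 to 35.1, 28.0 and 30.5 FPKM (−2.68 ± 0.07, adjusted p = 2.62e-08). The gene of that name encodes a thymosin that binds single actin molecules. The entry is listed with 1 exon of 135 bases, and whether it stands for the whole gene or for a copy was not tested. The commonest read was longer than that at 20 months (141 bases) and shorter at 2 and 10 months (132 bases). The part of read length in the fall of Tmsb10 was not tested. Mmp15, which encodes a membrane-anchored matrix metalloproteinase, went from 15.9, 16.9 and 15.2 to 2.49, 2.10 and 2.02 FPKM. In these 3 genes every 20-month library lay below every 2-month library. The 10-month means of Ptgds, Tmsb10 and Mmp15 were 39.0, 164 and 8.81 FPKM and lay between the other ages.

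Scube1, which encodes a cell-surface protein with EGF-like repeats, fell from 36.7, 36.3 and 35.8 to 8.05, 7.20 and 7.40 FPKM. The cyclin D2 gene Ccnd2, whose protein drives entry into the cell cycle, fell from 126, 122 and 119 to 31.9, 27.3 and 34.8 FPKM (−1.94 ± 0.07, adjusted p = 1.09e-07). Col15a1, a collagen gene of the basement membrane zone, fell from 12.7 ± 1.36 to 1.57 ± 0.684 FPKM (SD, n = 3 each), and was already at 1.81 FPKM at 10 months. Also among the 10 largest falls outside those classes were Gnpda1, an enzyme gene of amino sugar metabolism (14.7 to 2.96 FPKM), the immunoglobulin family gene Igsf1 (11.0 to 2.05 FPKM), Tmem35a (11.8 to 1.55 FPKM) and Tmem151a (7.29 to 0.532 FPKM).

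Among the 10 largest rises outside the same classes were genes of nuclear proteins and of zinc finger proteins. Ppig, which encodes a nuclear cyclophilin that binds splicing proteins, stood at 2.60, 2.96 and 2.86 FPKM at 2 months and at 19.6, 22.7 and 21.3 FPKM at 20 months (2.54 ± 0.07, adjusted p = 2.07e-08). Pnisr, which encodes a nuclear protein rich in serine and arginine, went from 10.0, 10.5 and 9.19 to 53.0, 52.6 and 59.1 FPKM. The zinc finger gene Zfp386 went from 3.64, 3.63 and 3.16 to 27.8, 27.9 and 29.7 FPKM (2.72 ± 0.06, adjusted p = 1.07e-08). All 3 sets were separate between the ages, with 10-month means of 4.80, 19.1 and 7.57 FPKM in between.

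The actin-binding gene Nexn was the second-largest rise under the naming rule, from 4.57, 4.12 and 4.43 to 32.7, 39.3 and 40.2 FPKM. Zfp600 went from 0.486 to 7.27 FPKM, the cell cycle activator gene Spdya from 0.838 to 7.68 FPKM, and Ifitm3, an interferon-induced gene whose protein hinders virus entry, from 0.662 to 7.53 FPKM. The nucleosome-binding protein genes Hmgn5 (0.378 to 5.98 FPKM) and Hmgn5b (2.23 to 15.4 FPKM) also rose, but near-identical copies can share reads, so the level of each is uncertain. Zfp600, Hmgn5 and, below, Comp entered the test only because their 20-month libraries reached 1 FPKM, and Igf2bp3 only through its 2-month libraries, so the direction of these 4 genes was bound to the filter.

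The largest rise of all under the rule was uneven. Dcn, which encodes the small proteoglycan decorin of fibrous tissue, stood at 2.40, 1.56 and 2.09 FPKM at 2 months and at 13.8, 19.7 and 66.4 FPKM at 20 months (3.19 ± 0.45, adjusted p = 2.2e-04). Without 20-month replicate 3, its log2 difference was 2.54 (adjusted p = 4.64e-06), so the call did not need that library, where its level was highest.

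**Figure D2:**
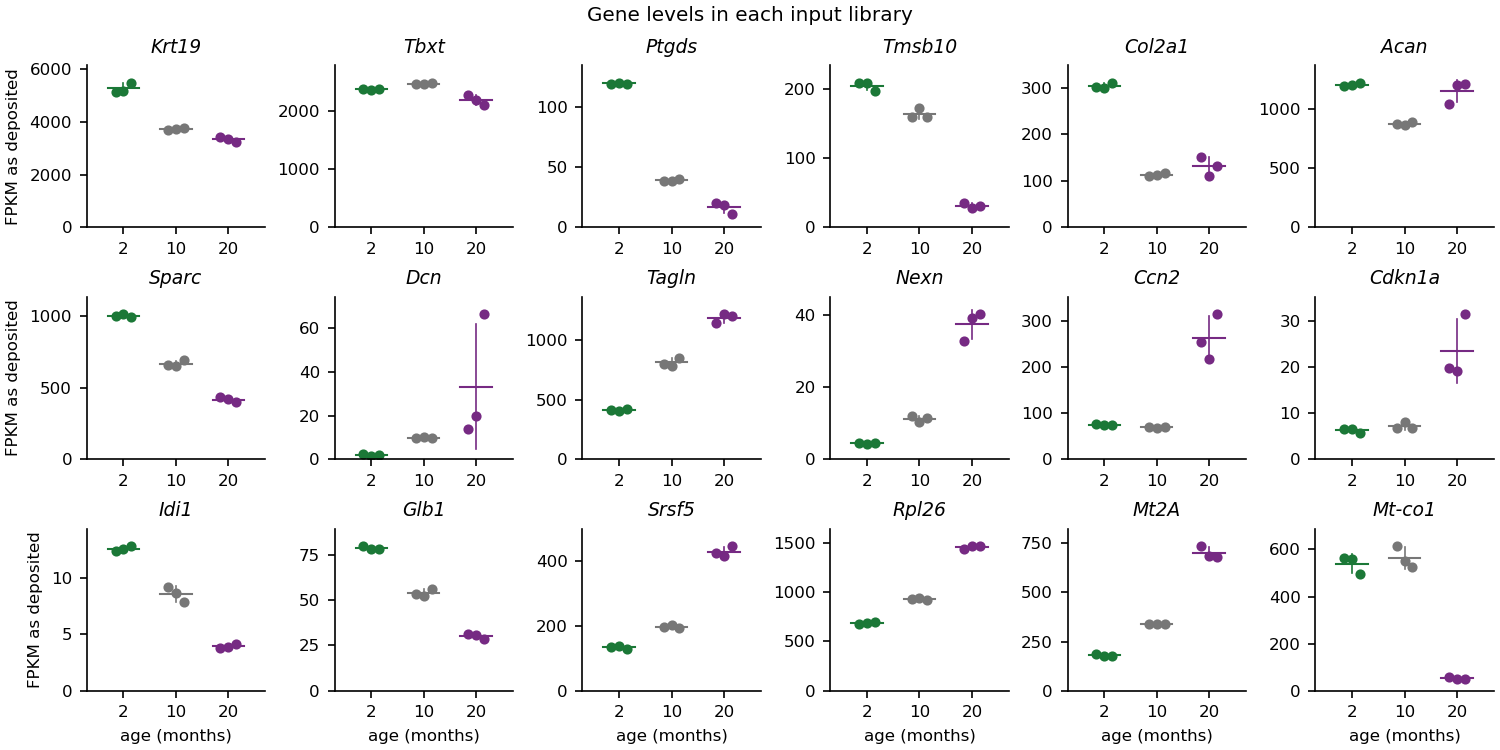
FPKM as deposited (vertical, from 0) by age in months (horizontal) for 18 genes, with 1 point per input library, a horizontal line at the mean and a vertical line of ± 1 SD (n = 3). At 20 months Tbxt and Acan are near their 2-month level, Ptgds, Tmsb10 and Mt-co1 lie far below it, and Dcn has 1 high library at 66.4 FPKM. Acan is lower at 10 months (mean 871 FPKM) than at either other age.

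That replicate also stood apart in other genes. The skeletal muscle list (15 genes) summed to 52.8 to 57.0 FPKM at 2 months, to 23.1 and 26.4 FPKM in 2 libraries of 20 months and to 380 FPKM in 20-month replicate 3. The muscle actin gene Acta1 stood at 1.73, 0.760 and 92.5 FPKM and the muscle myosin gene Myh4 at 0.184, 0.129 and 9.65 FPKM across the 20-month libraries. The same library was highest in Lum (0.334, 1.03 and 6.71 FPKM), a small proteoglycan gene of fibrous tissue, and in the collagenase gene Mmp13 (0.136, 1.39 and 6.20 FPKM). Of 10 tested muscle genes 1 rose and 0 fell, and without this library 1 rose and 9 fell. The part of muscle or fibrous tissue in Dcn and other uneven genes was not tested.

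The counts of each gene group below are to be read against all tested genes, of which 18.6% were higher and 49.6% lower as deposited and 31.0 and 31.3% after scaling. Markers of the nucleus pulposus moved in both directions. Of 21 tested markers, 6 rose and 12 fell as deposited and 10 rose and 10 fell after scaling, with a median log2 difference of −0.41 and −0.18 against −0.20 and −0.0020 for all tested genes. Krt19 fell to 3412, 3350 and 3247 FPKM (−0.66 ± 0.04, adjusted p = 7.41e-07), all below the 2-month libraries. Another keratin gene, Krt18, went the other way, from 1229, 1229 and 1229 to 1494, 1648 and 1733 FPKM.

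The adhesion gene Ncam1, a surface marker of notochord-derived cells, fell from 16.2, 17.3 and 18.0 to 6.01, 4.78 and 4.83 FPKM. Ca12, which encodes a membrane carbonic anhydrase that handles acid outside the cell, fell from 10.8 ± 0.292 to 4.07 ± 0.622 FPKM, and the caveolin gene Cav1 from 968 ± 8.83 to 716 ± 18.8 FPKM. Cytl1, a cartilage cytokine-like gene, rose from 3.34, 3.33 and 3.42 to 14.3, 11.3 and 17.7 FPKM, while its 10-month mean was 17.6 FPKM. Tbxt moved by −0.12 ± 0.03 as deposited (adjusted p = 0.0105) and by 0.11 after scaling (adjusted p = 0.0132), so its direction depends on the scaling.

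Among the matrix genes, most of the small and cell-surface proteoglycans fell while Acan itself had no settled direction. Of 14 tested proteoglycan genes, 3 rose and 9 fell as deposited, and 5 rose and 9 fell after scaling (median −0.60 and −0.38). Acan stood at 1191, 1196 and 1220 FPKM at 2 months and at 1038, 1196 and 1209 FPKM at 20 months, so the groups overlapped. Its log2 difference was −0.07 as deposited (adjusted p = 0.273), 0.16 when scaled by median of ratios (adjusted p = 0.048) and −0.31 after quantile normalization (adjusted p = 4.23e-04). At 10 months Acan stood at 867, 861 and 884 FPKM, below every library of the other ages.

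Sdc3, which encodes a membrane heparan sulfate proteoglycan, fell from 189, 186 and 189 to 66.7, 69.5 and 63.1 FPKM (−1.49 ± 0.04, adjusted p = 1.8e-08). Fmod, which encodes the collagen-binding proteoglycan fibromodulin, fell from 768, 779 and 805 to 413, 414 and 350 FPKM. Sdc2, another syndecan, fell from 52.8 to 34.1 FPKM and the membrane chondroitin sulfate proteoglycan gene Cspg4 from 23.3 to 12.7 FPKM, each separate in all libraries. The 3 members that rose under both scalings were Dcn, the lubricin gene Prg4 (0.724 to 5.06 FPKM) and Ogn (1.71 to 3.72 FPKM), all genes of small or joint-surface proteoglycans.

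Of 9 tested genes of cartilage-type collagens and matrix, 1 rose and 5 fell as deposited, and 2 rose and 4 fell after scaling. Col2a1, the main collagen of this tissue, stood at 301, 299 and 311 FPKM at 2 months and at 152, 111 and 132 FPKM at 20 months (−1.21 ± 0.09, adjusted p = 4.38e-06). At 10 months it was already at 113 FPKM. Col11a1, whose product sits in the core of type II collagen fibrils, fell from 23.2, 23.0 and 23.0 to 11.3, 11.2 and 11.5 FPKM. Hapln1, which encodes the link protein that ties aggrecan to hyaluronan, fell from 56.8 ± 0.888 to 44.3 ± 1.98 FPKM, and Ucma, a cartilage matrix protein gene, from 11.9 ± 0.694 to 6.61 ± 2.07 FPKM. The riser under both scalings was Comp, which encodes a matrix protein that links collagens, at 0.578, 0.494 and 0.592 against 2.29, 4.51 and 20.3 FPKM. It was again highest in 20-month replicate 3, and its log2 difference was 2.23 with that library and 1.45 without it (adjusted p = 0.00533 and 2.5e-04).

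Of 9 fibrillar and type VI collagen genes, 1 rose and 5 fell as deposited and 1 rose and 3 fell after scaling. Col1a1, the main collagen of fibrous tissue, went from 9.35, 9.43 and 9.62 to 0.895, 1.18 and 5.09 FPKM (−1.84, and −2.37 without 20-month replicate 3). The type VI collagen genes Col6a1 and Col6a2, whose product surrounds the cell, fell from 539 to 404 and from 433 to 302 FPKM. In 12 basement membrane genes 7 fell and 2 rose as deposited (4 and 3 after scaling). The linker protein genes Nid2 (69.7 ± 0.722 to 33.5 ± 0.922 FPKM) and Nid1 (13.1 ± 0.169 to 5.33 ± 0.586 FPKM) both fell, and so did the laminin gene Lamb1 (12.2 to 7.84 FPKM). The 2 risers were not stable: their count was 0 without 2-month replicate 2 or 20-month replicate 3, and 1 without 2-month replicate 3 or 20-month replicates 1 or 2.

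Matricellular proteins, which signal from the matrix to cells, went both ways, with 6 of 17 genes up and 8 down as deposited and 7 and 6 after scaling. Sparc, which encodes a collagen-binding protein, fell from 1006, 1015 and 997 to 434, 419 and 400 FPKM (−1.27 ± 0.04, adjusted p = 3.84e-08). Smoc1 fell from 432 to 277 FPKM. Ccn2, the connective tissue growth factor gene, rose from 75.8, 75.0 and 73.3 to 255, 216 and 314 FPKM, and its relative Ccn3 from 19.8, 20.0 and 19.3 to 34.7, 34.8 and 34.2 FPKM. The 10-month mean of Ccn2 was 68.8 FPKM, below the 2-month libraries, while that of Ccn3 was 31.5 FPKM.

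Genes of actin-binding proteins and of targets of the transcription factors SRF and YAP, which respond to actin assembly and mechanical load, were more often higher. Of 43 tested, 22 rose and 13 fell as deposited and 26 rose and 7 fell after scaling, with a median of 0.10 and 0.32. Tagln, which encodes an actin-bundling protein of contractile cells, went from 415, 406 and 425 to 1144, 1218 and 1200 FPKM (1.51 ± 0.04, adjusted p = 2.27e-08). Cald1, which encodes the actin-binding protein caldesmon, went from 5.60, 6.21 and 5.51 to 27.6, 18.9 and 22.1 FPKM. Both were separate between the ages, as were Nexn and Ccn2 above.

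Srf itself rose from 7.16, 7.18 and 7.10 to 10.3, 9.35 and 11.3 FPKM (0.47 ± 0.08, adjusted p = 4.66e-04). Among the 7 members that fell under both scalings were Tagln2, a relative of Tagln, from 259 to 169 FPKM, and Tead1, which encodes the DNA-binding partner of YAP, from 22.2, 19.9 and 19.6 to 8.43, 6.86 and 7.42 FPKM. Tpm2, a tropomyosin gene also used in muscle, stood at 14.9, 13.5 and 47.2 FPKM at 20 months and was thus uneven like the muscle genes. Its log2 difference was 1.14 with all libraries and 0.58 without 20-month replicate 3. Leaving out this library changed the counts of the group as deposited to 22 up and 14 down.

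SRF binds the CArG box, a motif of paired C and G bases around a stretch of A and T. The promoter windows of RefSeq (build GRCr8, from 250 bases before to 50 bases after the start of the gene) were searched for it on both strands, and 35 of the 43 members had a window. Of these 5 (14.3%) held a match, against 1.28% of the windows of 8200 tested genes and 1.64% of all 27457 windows. Many members were listed as targets of SRF, so this excess is built into the choice of the list. Of 17 members with a window that rose under both scalings, 4 held a match, and of 6 that fell, 0 did. The matching genes that rose were Srf, Actg1, Cnn2 and Fhl2, and the fifth match, Lima1, was called higher only after scaling (−0.01 as deposited). These 4 windows are printed to show where the box lies in the members that rose and hold it. They run 5′ to 3′ on the strand of the gene, with each CArG match in capitals. A match is a description of the letters, not evidence of binding. Srf lies at chr9:21923826-21924125 on the plus strand, Actg1 at chr10:106120902-106121201, Cnn2 at chr7:10370263-10370562 and Fhl2 at chr9:52954491-52954790, each of these 3 on the minus strand.
Srf: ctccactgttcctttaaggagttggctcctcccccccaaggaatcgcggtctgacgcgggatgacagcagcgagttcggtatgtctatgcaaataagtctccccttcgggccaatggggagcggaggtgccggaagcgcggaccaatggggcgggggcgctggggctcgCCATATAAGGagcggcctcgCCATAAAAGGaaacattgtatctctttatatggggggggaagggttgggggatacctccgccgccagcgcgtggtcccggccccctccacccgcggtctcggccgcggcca
Actg1: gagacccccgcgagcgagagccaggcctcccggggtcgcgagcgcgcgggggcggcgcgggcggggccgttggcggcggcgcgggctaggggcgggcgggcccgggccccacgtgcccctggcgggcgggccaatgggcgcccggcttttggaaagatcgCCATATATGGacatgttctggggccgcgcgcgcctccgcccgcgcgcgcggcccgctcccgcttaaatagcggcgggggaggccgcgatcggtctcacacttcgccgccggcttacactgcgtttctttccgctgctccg
Cnn2: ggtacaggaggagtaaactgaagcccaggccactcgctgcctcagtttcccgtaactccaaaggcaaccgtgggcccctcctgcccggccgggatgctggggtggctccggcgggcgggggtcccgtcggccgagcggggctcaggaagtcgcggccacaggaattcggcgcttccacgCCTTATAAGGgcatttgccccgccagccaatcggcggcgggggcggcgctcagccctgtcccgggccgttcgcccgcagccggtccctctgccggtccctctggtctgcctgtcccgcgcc
Fhl2: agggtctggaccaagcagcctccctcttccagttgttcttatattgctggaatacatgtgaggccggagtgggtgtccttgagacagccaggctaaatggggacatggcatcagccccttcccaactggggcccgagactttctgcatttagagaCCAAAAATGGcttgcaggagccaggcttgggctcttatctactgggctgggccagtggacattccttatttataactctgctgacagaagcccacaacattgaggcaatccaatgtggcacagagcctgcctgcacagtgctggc

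The window of Srf held 2 CArG matches, the first starting 81 bases before the start of the gene, and the others 1 each. Actg1, a cytoplasmic actin gene, stood at 554, 556 and 623 FPKM at 2 months and at 652, 645 and 655 FPKM at 20 months. Cnn2, which encodes the actin-binding protein calponin 2, went from 37.3, 36.9 and 40.2 to 53.9, 64.0 and 58.2 FPKM, and Fhl2, a LIM domain cofactor gene, from 2.28, 2.44 and 2.32 to 4.27, 3.14 and 3.88 FPKM. In all 4 genes the ages did not overlap, although Actg1 moved by only 0.17 ± 0.05. The E-box CACGTG, which clock proteins bind, was found in 4 of 16 windows of clock genes (25.0%) against 9.95% for tested genes. As with the CArG box, an excess may be built into the choice of the list. Among clock genes with a window, 0 of 3 that rose and 3 of 6 that fell under both scalings held the E-box. The sterol regulatory element TCACNCCAC was found in 0 of 27 windows of sterol and fatty acid genes against 1.15%, which says only that these letters are not in these windows.

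The enzymes that build and sulfate glycosaminoglycan chains, the sugar chains of proteoglycans, fell as a majority. Of 38 tested genes, 0 rose and 28 fell as deposited by limma, and 6 rose and 20 fell after scaling (median −0.40 and −0.21). Xylt1, which places the first sugar of the chain on the core protein, fell from 89.1, 86.9 and 87.0 to 48.5, 47.9 and 50.5 FPKM (−0.83 ± 0.04, adjusted p = 4.3e-07). Chst3, which sulfates chondroitin, fell from 24.2, 25.0 and 25.6 to 9.77, 8.81 and 9.42 FPKM, and Hs2st1, which sulfates heparan sulfate, from 10.3 to 5.81 FPKM. Each was separate between the ages, and Xylt1 at 82.8 FPKM was still near its 2-month level at 10 months while Chst3 was at 12.3 FPKM.

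In the N-glycan list, which covers sugar attachment to new proteins, 0 of 42 genes rose and 35 fell as deposited, and 3 rose and 28 fell after scaling (median −0.45 and −0.25). Dad1, a subunit of the oligosaccharyl transferase, fell from 94.1, 97.3 and 102 to 53.6, 54.9 and 55.2 FPKM, and the subunit genes Ostc and Rpn2 from 74.9 to 41.8 and from 62.7 to 42.4 FPKM. Of 29 genes of folding and stress in the endoplasmic reticulum, 2 rose and 22 fell (6 and 17 after scaling). The chaperone gene Dnajb11 fell from 24.9 to 14.0 FPKM and Sel1l, of the pathway that removes misfolded proteins, from 57.3 to 36.8 FPKM, while the stress-induced phosphatase gene Ppp1r15a rose from 83.6, 88.3 and 85.5 to 129, 127 and 136 FPKM.

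Of 35 genes of coat proteins and vesicle transport, 1 rose and 27 fell as deposited, but 8 rose and 16 fell after scaling (median −0.31 and −0.08), nearer to all tested genes. Sec24d and Sec23a, which encode parts of the coat that carries cargo such as procollagen out of the endoplasmic reticulum, fell from 33.9, 34.6 and 35.4 to 17.7, 15.5 and 17.0 FPKM and from 26.0 to 14.4 FPKM. Kdelr3, a receptor that returns escaped proteins, fell from 88.7 to 48.9 FPKM. Of 22 genes of collagen hydroxylation, folding and crosslinking, 3 rose and 16 fell (6 and 12 after scaling). Plod1, a lysyl hydroxylase gene, fell from 67.2, 69.3 and 66.6 to 34.1, 34.1 and 33.6 FPKM (−0.97 ± 0.03, adjusted p = 5.15e-08), the collagen chaperone gene Fkbp10 from 49.6 to 27.8 FPKM, and the crosslinking enzyme gene Loxl3 from 43.5 to 22.3 FPKM.

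Matrix proteases and their inhibitors fell together in number, with 11 of 17 genes down and 2 up as deposited and 10 and 3 after scaling (median −0.47 and −0.26). Besides Mmp15, the inhibitor gene Timp3 fell from 493, 497 and 477 to 285, 302 and 312 FPKM while Ctsb, for a protease of the lysosome, went down from 532 to 342 FPKM. The list thus holds enzymes and an enzyme inhibitor that were both lower.

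**Figure D3:**
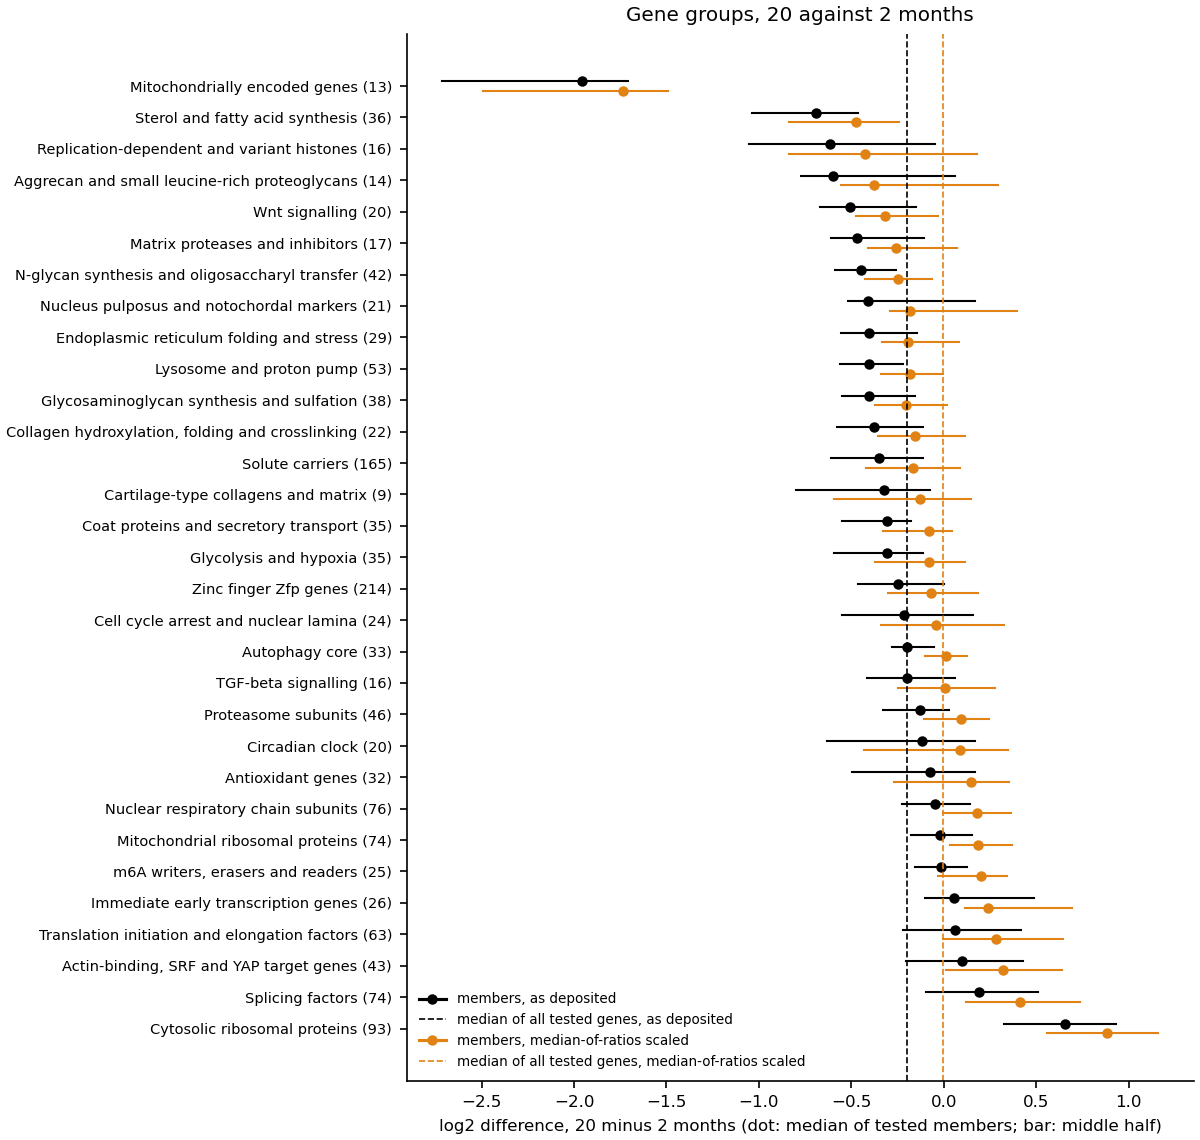
Log2 difference of 20 minus 2 months (horizontal) for 31 gene groups (vertical, number of tested members in brackets), with the median member as a dot and the middle 50% of members as a bar, in black as deposited and in orange after median-of-ratios scaling. Dashed lines mark the median of all tested genes, and the mitochondrially encoded genes (−1.95 and −1.73) and the cytosolic ribosomal protein genes (0.65 and 0.88) sit farthest from it on either side.

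Lysosomal genes were more often lower. Of 53 tested genes of the lysosome and its proton pump, 5 rose and 42 fell as deposited, and 9 rose and 28 fell after scaling (median −0.41 and −0.18). Glb1, which encodes the lysosomal beta-galactosidase, fell from 79.8, 78.3 and 78.0 to 31.1, 30.9 and 28.3 FPKM (−1.36 ± 0.05, adjusted p = 6.28e-08). Neu1, a sialidase gene, fell from 20.2, 21.8 and 20.7 to 8.29, 8.11 and 7.68 FPKM, and the proton pump gene Atp6v1d from 128 to 86.8 FPKM. All 20-month libraries of these genes lay below all 2-month libraries.

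Core autophagy genes had the median of all tested genes (−0.20 and 0.01 against −0.20 and −0.0020): 3 of 33 rose and 22 fell as deposited, and 9 rose and 6 fell after scaling. The 3 risers under both scalings were Rb1cc1, a scaffold of the kinase that starts autophagy (1.23, 1.35 and 1.20 to 6.20, 6.98 and 6.71 FPKM), the receptor gene Tax1bp1 (32.7 to 53.6 FPKM) and Gabarapl1, of the family that coats the autophagosome (69.4 to 108 FPKM). Of 46 proteasome genes 9 rose and 22 fell as deposited, and 20 rose and 11 fell after scaling (median −0.13 and 0.09). Psme1, an activator subunit induced by interferon, rose from 25.6, 23.7 and 27.3 to 61.9, 62.7 and 65.1 FPKM.

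Most genes of sterol and fatty acid synthesis fell. Of 36 tested genes, 32 fell and 1 rose as deposited and 29 fell and 2 rose after scaling, with a median of −0.69 and −0.48. Idi1, an enzyme of the mevalonate pathway, fell from 12.3, 12.5 and 12.8 to 3.81, 3.90 and 4.09 FPKM (−1.46 ± 0.06, adjusted p = 1.44e-07). Fads2, a fatty acid desaturase gene, fell from 21.8 ± 1.26 to 5.65 ± 0.395 FPKM. The sterol enzyme genes Cyp51 and Sqle fell from 25.2 to 9.48 and from 26.0 to 10.2 FPKM, each in all libraries. The single riser under both scalings was Insig1, which encodes the protein that holds back the sterol-sensing transcription factors, at 116, 118 and 114 against 151, 184 and 162 FPKM.

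In glycolysis and the response to low oxygen, 25 of 35 genes fell and 6 rose as deposited, and 15 fell and 9 rose after scaling (median −0.31 and −0.08). Hk2, a hexokinase gene, fell from 116, 114 and 119 to 49.3, 49.5 and 54.1 FPKM (−1.18 ± 0.04, adjusted p = 6.93e-08). The glucose transporter gene Slc2a3 fell from 56.5, 57.3 and 58.6 to 19.4, 19.6 and 22.6 FPKM, the lactate exporter gene Slc16a3 from 63.3 to 28.3 FPKM and the glycolytic enzyme gene Gpi from 651 to 413 FPKM. Across 165 genes of solute carriers, which move small molecules across membranes, 107 fell and 20 rose as deposited and 75 fell and 29 rose after scaling. The neutral amino acid transporter gene Slc38a7 fell from 6.88 to 2.09 FPKM.

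Of 76 nuclear genes of the respiratory chain 20 rose and 28 fell as deposited (26.3 and 36.8%) and 42 rose and 12 fell after scaling (55.3 and 15.8%), with a median of −0.05 and 0.18. All tested genes moved from 18.6 and 49.6% to 31.0 and 31.3% with the same scaling. The complex I genes Ndufc2 (59.0 to 36.1 FPKM), Ndufa8 (97.4 to 64.7 FPKM) and Ndufb6 (13.0 to 8.44 FPKM) fell under both scalings. So did Cox4i2 (172 to 120 FPKM), the form of a cytochrome oxidase subunit used at low oxygen. Only fallers are named here, while 20 members of this nuclear list rose and 12 fell under both scalings. The 13 genes encoded in the mitochondrion were far lower: 12 fell and 1 rose under either scaling (median −1.95 and −1.73). Mt-co1 stood at 565, 561 and 495 FPKM at 2 months and at 59.2, 49.1 and 50.4 FPKM at 20 months, and Mt-cyb at 233, 218 and 198 against 37.1, 29.5 and 29.6 FPKM. The exception was Mt-nd3, at 6.35, 4.91 and 5.17 against 17.1, 12.7 and 8.54 FPKM. The 10-month libraries, which shared the read length of the 2-month ones, had 563 FPKM of Mt-co1. The part of library making in this difference was not tested.

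Most ribosomal protein genes rose. Of 93 tested cytosolic ribosomal protein genes, 75 rose and 5 fell as deposited and 81 rose and 2 fell after scaling (median 0.65 and 0.88). Rpl26 went from 679, 692 and 692 to 1439, 1467 and 1463 FPKM (1.08 ± 0.02, adjusted p = 1.14e-08) and Rps3 from 563, 564 and 581 to 1210, 1267 and 1248 FPKM. Rps3a (1052 to 2065 FPKM) and Rpl3 (315 to 573 FPKM) rose as well. Many copies of these genes exist, so single members are uncertain. Their share of the summed FPKM was 14.1 to 14.5% in the youngest rats, 16.4 to 16.7% in the middle group and 20.6 to 21.1% in the oldest. Genes of mitochondrial ribosomal proteins, in contrast, were split 19 up and 20 down of 74 as deposited and 33 up and 10 down after scaling, with Mrps33 at 25.7 and 34.4 FPKM and Mrpl42 at 28.1 and 19.2 FPKM.

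Among 63 translation factors, 28 rose and 22 fell as deposited and 40 rose and 11 fell after scaling (median 0.06 and 0.28). Eif5b, which joins the ribosomal subunits, rose from 9.14, 8.72 and 9.39 to 40.6, 47.0 and 44.0 FPKM (2.15 ± 0.06, adjusted p = 1.85e-08). The elongation factor genes Eef1b2 and Eef1d rose from 115 to 210 and from 51.6 to 88.8 FPKM. Splicing factor genes were also more often higher, with 43 of 74 up and 17 down as deposited and 53 up and 5 down after scaling (median 0.19 and 0.41). Srsf5, a serine and arginine rich splicing factor, went from 134, 138 and 130 to 425, 417 and 448 FPKM (1.67 ± 0.04, adjusted p = 1.07e-08). Rbm39 rose from 48.7 to 105 FPKM and Snrnp70, of the complex that reads the start of an intron, from 71.8 to 180 FPKM, with all ages separate.

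Of 214 tested zinc finger Zfp genes, 32 rose and 113 fell as deposited (15 and 52.8%) and 52 rose and 72 fell after scaling (24.3 and 33.6%), with medians of −0.25 and −0.07, near those of all tested genes. Zfp62 rose from 3.05 to 8.33 FPKM. Of 16 histone genes 10 fell and 3 rose (8 and 3 after scaling). The linker histone gene H1f10 fell from 12.4, 11.3 and 11.2 to 3.76, 3.75 and 3.94 FPKM. Of the entries named for the histone H3.3 genes, H3f3a (1655 bases) rose from 253 to 349 FPKM while H3f3b (411 bases) fell from 246 to 163 FPKM. Similar copies can share reads, so the level and direction of each of these 2 entries are uncertain.

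Of 24 genes of cell cycle arrest and the nuclear lamina 5 rose and 12 fell as deposited (20.8 and 50%), near the 18.6 and 49.6% of all tested genes, and 9 rose and 9 fell after scaling. Cdkn1a, which encodes the cell cycle inhibitor p21, rose from 6.49, 6.62 and 5.62 to 19.8, 19.2 and 31.4 FPKM (1.72 ± 0.17, adjusted p = 1.96e-05), with a 10-month mean of 7.20 FPKM. Cdkn1c, which encodes the related inhibitor p57, rose from 313, 308 and 280 to 582, 590 and 552 FPKM. Plk2, a kinase gene induced by p53, rose from 3.88, 3.88 and 3.61 to 16.2, 13.6 and 18.7 FPKM.

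The members that fell by more than 2-fold were Ccnd2, the unconventional cyclin gene Ccng2 (24.4 to 8.84 FPKM) and Glb1, whose enzyme activity is used as a stain for senescent cells. Of 26 immediate early genes, which cells switch on within minutes of a stimulus, 8 rose and 4 fell as deposited and 14 rose and 2 fell after scaling. Without 20-month replicate 3 the fallers as deposited numbered 8 in place of 4. Zfp36, which encodes a protein that destabilizes inflammatory mRNAs, rose from 19.2, 18.3 and 18.5 to 44.2, 53.1 and 84.8 FPKM and the damage-induced gene Gadd45a from 22.1 to 38.3 FPKM, while Ier3 fell from 29.0 to 16.7 FPKM and Klf10 from 10.7 to 7.36 FPKM.

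Heat shock chaperones had 3 of 18 up and 8 down as deposited (16.7 and 44.4%), near the 18.6 and 49.6% of all tested genes. After scaling 9 were up and 6 down (50 and 33.3%). Only fallers are named of this list, while 3 members rose and 6 fell under both scalings. The small heat shock protein genes Cryab and Hspb1 fell from 127 to 62.3 and from 400 to 250 FPKM, and the co-chaperone gene Dnaja1 from 59.3 to 35.0 FPKM. Of 32 antioxidant genes 8 rose and 15 fell as deposited (25 and 46.9%), and 14 rose and 10 fell after scaling (43.8 and 31.2%). Only risers are named of this list, while 8 members rose and 10 fell under both scalings. Mt2A, which encodes the metal-binding metallothionein 2A, rose from 185, 177 and 178 to 735, 684 and 681 FPKM (1.95 ± 0.04, adjusted p = 1.07e-08), and its 10-month mean of 339 FPKM lay in between. The secreted glutathione peroxidase gene Gpx3 rose from 29.9 to 67.4 FPKM and the catalase gene Cat from 22.3 to 44.8 FPKM.

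Of 16 TGF-beta genes 3 rose and 8 fell as deposited (18.8 and 50%, near the 18.6 and 49.6% of all tested genes), and 7 rose and 5 fell after scaling. Of the ligands, Tgfb2 rose from 24.4, 24.3 and 24.1 to 54.6, 65.3 and 61.8 FPKM (1.28 ± 0.06, adjusted p = 3.62e-07) and Tgfb1 fell from 26.9, 26.7 and 27.2 to 16.3, 13.8 and 15.2 FPKM. Ski, a repressor of the pathway's effectors, fell from 17.9 to 11.2 FPKM.

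Of 20 Wnt genes 2 rose and 14 fell under either scaling (median −0.51 and −0.32). The co-receptor genes Lrp5 and Lrp6 fell from 34.4, 34.5 and 35.6 to 16.7, 17.3 and 17.7 FPKM and from 26.7 to 16.6 FPKM, while the receptor gene Fzd4 rose from 4.56, 4.49 and 4.98 to 10.4, 9.88 and 10.5 FPKM. Of 15 BMP genes 3 rose and 8 fell (5 and 6 after scaling), as deposited also near the shares of all tested genes, with the receptor gene Acvr1 (5.03 to 2.94 FPKM), the target gene Id3 (8.64 to 5.06 FPKM) and the antagonist gene Nbl1 (120 to 88.5 FPKM) lower. In the IGF axis 2 of 8 rose and 5 fell (3 and 3). The receptor substrate gene Irs2 rose from 3.17, 3.37 and 3.09 to 7.71, 7.84 and 8.90 FPKM, and the receptor gene Igf1r and the binding protein gene Igfbp7 fell from 19.1 to 13.6 and from 385 to 201 FPKM. The count of risers was 1 in place of 2 without 2-month replicates 2 or 3 or 20-month replicates 1 or 3.

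Of 15 inflammation and NF-kappaB genes 7 were called lower (46.7%) and 1 higher as deposited and 5 lower (33.3%) and 3 higher after scaling, with the lower share near the 49.6 and 31.3% of all tested genes. The subunit gene Nfkb1 fell from 12.2 to 8.04 FPKM, the inhibitor gene Nfkbib from 10.6 to 4.79 FPKM and the interleukin 6 receptor gene Il6r from 16.5 to 9.90 FPKM. In the group of 26 genes for interferon signalling and for showing antigens, 6 rose and 15 fell (8 and 12). Irf3, a transcription factor that starts the interferon response, rose from 16.6, 18.6 and 16.2 to 44.4, 40.8 and 45.2 FPKM. Irf9, which carries the interferon signal into the nucleus, fell from 5.19, 5.24 and 5.31 to 1.69, 1.41 and 1.95 FPKM, and the target gene Mx2 from 1.63, 1.69 and 1.78 to 0.334, 0.194 and 0.266 FPKM.

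Nucleus pulposus cells also adapt to changing salt and water. Of 17 osmotic adaptation genes 4 rose and 8 fell as deposited (9 and 5 after scaling). The ion channel gene Trpv4, which senses swelling, fell from 10.9, 11.2 and 11.1 to 5.58, 5.64 and 6.36 FPKM, and Lrrc8a, a subunit of the volume-regulated anion channel, from 10.4 to 5.09 FPKM. Integrin and spectrin genes had 7 of 24 up and 11 down (10 and 6), with the laminin receptor gene Itga6 falling from 38.7, 41.6 and 40.1 to 17.4, 13.5 and 14.0 FPKM and Itgb1, the shared beta subunit, from 311 to 213 FPKM.

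The genes that write, erase and read m6A were part of the question of the series. Of 25 tested, 6 rose and 8 fell as deposited and 14 rose and 4 fell after scaling (median −0.01 and 0.20). The writer gene Mettl3 stood at 15.6, 15.5 and 16.1 against 13.1, 12.3 and 13.1 FPKM, and its log2 difference was −0.27 as deposited (adjusted p = 2.89e-04) and −0.06 after scaling (adjusted p = 0.23). Its partner Mettl14 stood at 9.92, 8.92 and 9.47 against 9.98, 7.98 and 10.0 FPKM, with overlapping libraries (adjusted p = 0.835). The writer subunit gene Virma fell under both scalings, from 8.85, 8.78 and 8.56 to 4.78, 5.07 and 5.26 FPKM.

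Of the erasers, Alkbh5 fell from 25.5, 25.8 and 24.6 to 19.2, 19.3 and 19.7 FPKM (−0.37, adjusted p = 3.21e-05, and −0.15 once scaled, adjusted p = 0.00899), and Fto stood at 26.2, 27.8 and 28.4 against 23.2, 24.9 and 25.6 FPKM. The difference of Fto was −0.16 as deposited (adjusted p = 0.019) and 0.07 after scaling (adjusted p = 0.317), and as deposited it missed the threshold when 2-month replicate 2 or 3, or 20-month replicate 1, was left out (adjusted p = 0.0593, 0.0697 and 0.0538 in that order). Among readers, Igf2bp3 fell from 4.82, 4.67 and 3.69 to 0.599, 0.354 and 0.491 FPKM, with 0.823 FPKM at 10 months, and Fmr1 rose from 12.2, 12.7 and 12.1 to 24.3, 22.2 and 21.2 FPKM. No m6A level is reported here.

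Of 20 circadian clock genes 5 rose and 10 fell as deposited (7 and 7 after scaling). The output gene Dbp fell from 93.9, 91.6 and 99.0 to 34.6, 30.5 and 22.6 FPKM and the repressor genes Bhlhe41 and Bhlhe40 from 46.1 to 16.0 and from 205 to 117 FPKM, while Nfil3, which opposes Dbp on shared sites, rose from 2.42, 3.15 and 2.96 to 6.98, 8.48 and 11.7 FPKM. The labels do not give the hour of sampling.

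Markers of other cell types were low or lower. The globin genes Hba-a1 and Hba-a2 of red blood cells fell from 53.2, 47.4 and 53.7 to 19.4, 21.1 and 19.0 FPKM and from 23.6 to 9.39 FPKM, with 5.88 and 2.57 FPKM at 10 months. The red blood cell and iron list (11 genes) summed to 125 to 136 FPKM at 2 months and to 77.8 to 82.3 FPKM at 20 months. Macrophage markers (16 genes) summed to 25.2 to 26.6 and 26.0 to 28.0 FPKM, with Csf1r up from 7.04 to 11.3 FPKM and Cd68 down from 4.32 to 2.23 FPKM among 5 tested. None of 6 T and B cell markers passed the filter, and they summed to at most 0.323 FPKM.

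Of 3 tested endothelial and pericyte genes 2 fell, Cspg4 and the receptor gene Flt1 (27.0 to 21.1 FPKM), and the list summed to 37.0 to 37.7 FPKM at 20 months. The endothelial gene Vwf, below the filter, went the other way, from 0.256, 0.265 and 0.305 to 0.626, 0.675 and 0.811 FPKM. Annulus, tendon and fibroblast markers (14 genes) summed to 789 to 826 and 438 to 444 FPKM, most of it Fmod, with 2 of 7 tested up (Dcn and Prg4) and 4 down. All 4 tested genes of hypertrophic chondrocytes fell under both scalings, among them the parathyroid hormone receptor gene Pth1r (147 to 76.0 FPKM) and Spp1, which encodes osteopontin, from 6773, 6777 and 6697 to 4691, 3392 and 3867 FPKM. Col10a1, which defines that cell type, was at most 0.289 FPKM at 2 months and listed at 0 in all 20-month libraries. The osteoclast enzyme gene Acp5 fell from 14.7, 15.6 and 15.2 to 5.46, 4.38 and 4.97 FPKM. Of 2 tested fat cell markers, Lpl, for lipoprotein lipase, dropped from 123 to 41.8 FPKM, whereas the lipid droplet gene Plin4 rose from 1.82 to 4.14 FPKM. The defining fat cell genes Adipoq and Plin1 stayed at or below 0.179 FPKM in every library. The part of these cell types in the gene differences was not tested.

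Within genes, the isoform table was used to ask whether the share of a transcript differed between 20 and 2 months. In 1323 genes 2765 isoforms were tested, and 152 (5.5%) had a higher and 147 (5.32%) a lower share at 20 months, in 164 genes. In 132 of these genes isoforms were called in both directions, and in 38 a called isoform crossed 50% of the gene. The libraries did not overlap for 440 (15.9%) upward and 448 (16.2%) downward. Each isoform is measured against the other isoforms of its gene, so in a gene of 2 isoforms the tests mirror each other. Calls in both directions within a gene, and the near-even counts up and down, are therefore largely built into the measure. The total of 13 of the 164 genes was called under neither scaling. Without 2-month replicate 1, 2 or 3 the counts fell to 50 and 52, 58 and 56, and 67 and 64. In all 6 fits that left out a library, 84 isoforms of 49 genes kept their call.

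Fibronectin, which binds cells to the matrix and whose transcripts are known to differ by included repeats, showed such a shift. The 45-exon isoform of Fn1 (8136 bases) held 23.4, 24.2 and 24.4% of the gene at 2 months and 49.3, 48.2 and 54.0% at 20 months, and the 46-exon isoform (8331 bases) held the rest. Its share at 10 months was 23.9%. The log2 ratio of the first to the other isoform moved by 1.69 ± 0.13 (adjusted p = 0.00197, and at most 0.0158 when any library was left out). The gene as a whole fell from 1331, 1325 and 1348 to 1029, 997 and 1110 FPKM, the level of the 46-exon isoform of Fn1 went from 1034, 1019 and 1033 to 532, 527 and 522 FPKM, and that of the 45-exon isoform from 316, 326 and 334 to 518, 490 and 612 FPKM. The 45-exon isoform lies on the minus strand of chromosome 9 at 78900103 to 78969078 and the 46-exon isoform of Fn1 at 78900113 to 78969013 by the table's coordinates, for which the sources name no build.

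Sptan1, which encodes the alpha chain of spectrin under the cell membrane, had a similar exchange. Its 55-exon isoform went from 15.3, 20.6 and 24.2% to 63.1, 59.6 and 56.4% of the gene (2.57 ± 0.23, adjusted p = 0.00234), and a 56-exon isoform from 73.8 ± 6.14% to 36.8 ± 8.30%. The gene total moved by 0.07 as deposited. Dsc2, a desmosomal cadherin gene chosen after its values were seen, moved from 24.0 ± 1.49% to 55.5 ± 3.60% for its 17-exon isoform, with 33.0% at 10 months, while its total fell by 0.87 on the log2 scale.

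Among genes of RNA and ribosomes, the 5-exon isoform of Rps16 rose from 55.9, 55.4 and 54.6% to 83.2, 83.6 and 84.2% of the gene and a 4-exon isoform fell from 43.5, 44.0 and 44.8% to 15.2, 14.8 and 14.2% (adjusted p = 2.16e-04 and 1.8e-04). The 10-exon isoform of Lsm14a, whose protein holds mRNAs in granules, fell from 85.0, 83.5 and 84.9% to 39.7, 46.5 and 47.0%. A 7-exon isoform of Rpl13a fell from 40.2, 37.1 and 42.5% to 1.68, 0.494 and 0.411%. The 4-exon isoform of Rsrp1 rose from 69.9 ± 1.22% to 87.0 ± 0.750%. The 5-exon isoform of Slfn13 was listed at 0 in all 2-month libraries, and held 37.1 ± 5.51% at 10 months and 40.7, 39.3 and 65.9% at 20 months.

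Chosen after their values were seen, the non-muscle myosin light chain gene Myl6 went from 43.9 ± 0.842% to 12.1 ± 3.84% for a 6-exon isoform. Pmp22, which encodes a membrane protein of tight contacts and myelin, went from 71.6 ± 3.49% to 94.0 ± 2.67% for an isoform of 1814 bases, with 87.8% at 10 months and a total that moved by only 0.02 on the log2 scale. Between 2 and 10 months the mean shares went from 24.0 to 23.9% for Fn1, 55.3 to 54.4% for Rps16, 39.9 to 37.7% for Rpl13a, 84.5 to 81.6% for Lsm14a, 20.0 to 15.3% for Sptan1 and 69.9 to 65.6% for Rsrp1, and moved further for Slfn13, Dsc2 and Pmp22, as given above. The 10-month libraries shared the 2-month read length, and the part of read length in the shares was not tested.

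**Figure D4:**
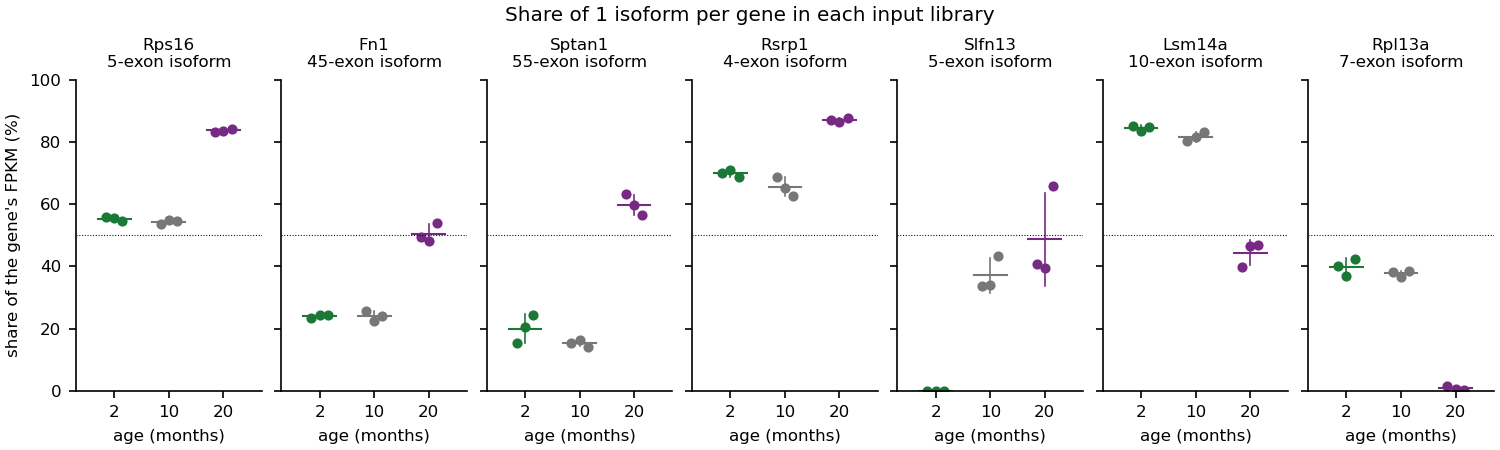
Share of the gene's summed FPKM held by 1 isoform (vertical, %) by age in months (horizontal) in 7 genes, with 1 point per input library, the mean as a horizontal line, ± 1 SD as a vertical line (n = 3) and 50% dotted. Rps16, Fn1, Sptan1 and Rsrp1 sit higher at 20 than at 2 and 10 months, Lsm14a and Rpl13a sit lower, and Slfn13 is at 0 only at 2 months.

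The calls also followed transcript length. With the tested genes split into 5 nearly equal groups by the length of the leading isoform, the shortest (49 to 1101 bases, 2342 genes) had 27.4% up and 31.4% down as deposited, and the longest (3638 to 23724 bases, 2341 genes) 14.7% up and 61.5% down. After scaling the shortest had 37.4% up and 20.5% down, and the longest 26.0% up and 40.2% down, with medians of 0.15 and −0.08. Without ribosomal protein and respiratory chain genes, which are short, the median of the shortest group after scaling was 0.11. The part of length in the counts of the gene groups was not tested.

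**Figure D5:**
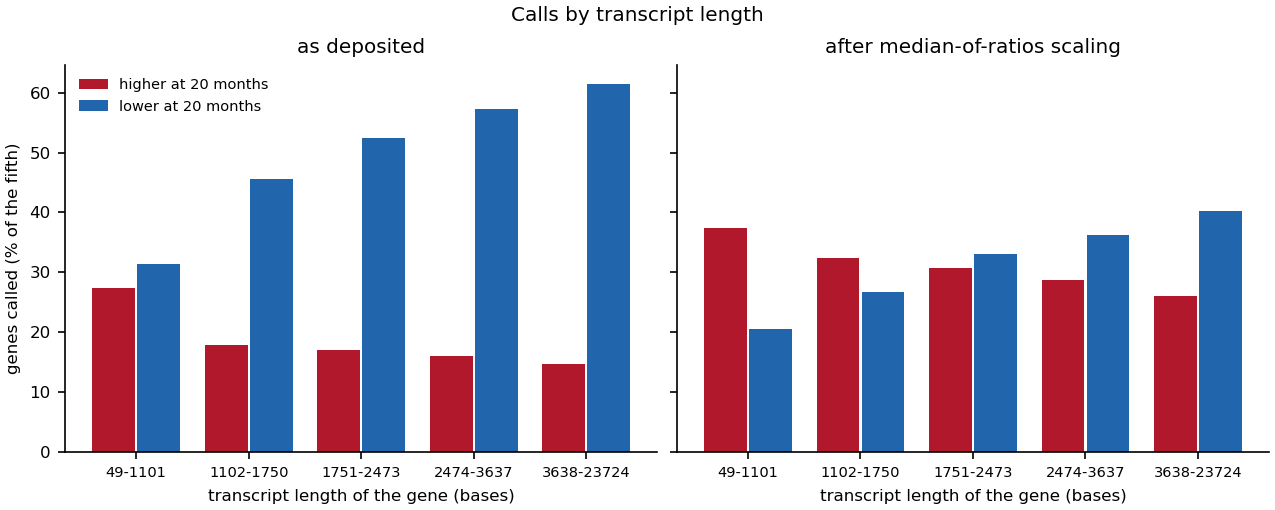
Share of genes called higher (red) or lower (blue) at 20 months (vertical, %, from 0) in 5 groups of tested genes by transcript length in bases (horizontal), as deposited (left) and after median-of-ratios scaling (right). From the shortest to the longest group the blue bars grow from 31.4 to 61.5% on the left and from 20.5 to 40.2% on the right.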

How the data were processed

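Input libraries were made from poly(A) RNA of rat nucleus pulposus, per the labels' protocols, with 3 libraries at each of 2, 10 and 20 months. The authors deposited FPKM per gene and per isoform and, per the file headers, the coverage of each isoform. Tools listed without roles in the submitters' processing notes are StringTie 1.3.4d, HISAT2 2.0.4, cutadapt 1.9, edgeR and DESeq2. No build or annotation is named in those sources. Per-library mapped bases and read length were derived here from the deposited coverage and FPKM.

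Genes that reached 1 FPKM in 3 or more of the 9 input libraries were tested on log2(FPKM + 1) with limma 3.58.1 in R 4.3.3. One fit with a mean-variance trend held all 3 ages, and its two-sided contrast of 20 minus 2 months was adjusted by Benjamini-Hochberg (threshold 0.05). It was repeated after median-of-ratios scaling. Isoforms holding 10 to 90% of a gene of at least 5 FPKM were tested on log2 of (isoform + 0.5) over (other isoforms + 0.5). Every adjusted p in the text is from these limma fits over all genes or isoforms tested, and the steps were checked on simulated data.

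The gene groups and comparisons were chosen with earlier results of these data known. Named genes were the 10 largest changes each way, called and not overlapping under both scalings and of at least 5 FPKM. Placeholder, ribosomal protein, mitochondrially encoded and small RNA genes were left out of these. Up to 4 called members of a main list or 3 of another were added. Members called under both scalings came first, then those with the smallest adjusted p. A few fixed genes and 5 isoforms each way were also named. Named after their values were seen were Acta1, Myh4, Lum, Mmp13, Tpm2, Comp, Ogn, Ca3, Krt18, Cytl1, Cald1, Srf, Actg1, Cnn2, Fhl2, Lima1, Insig1, Mt-nd3, Plk2, Nfil3, Dsc2, Myl6, Pmp22 and the markers at or near 0. Same-numbered libraries of 2 and 20 months did not deviate together (r = −0.0400, 0.00368 and 0.0134), so the numbers were not used as pairs.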

Additional observations from a re-analysis of the deposited data

How the results depend on the processing

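Median-of-ratios scaling moved the counts of genes from 2175 higher and 5811 lower to 3630 and 3668, and to 3572 and 3619 when 20-month replicate 3 was also left out, an alternative chosen after seeing the data. Quantile normalization gave 3276 higher and 4032 lower. Leaving out each library in turn gave 1944 to 2138 genes higher and 5329 to 5872 lower, and 50 to 129 isoforms with a higher and 52 to 128 with a lower share, against 152 and 147. With only the 6 libraries of 2 and 20 months, 72 isoforms were higher and 70 lower. With the replicate number as a block, 2138 genes were higher and 5721 lower, and 58 isoforms were higher and 63 lower; same-numbered libraries did not deviate together, so this block only shares a number. The direction turned for Fto (0.065 after scaling, 0.033 also without 20-month replicate 3), Tbxt (0.11 and 0.14) and Acan (0.16 after scaling). Of 102 counts of group members, 48 moved by more than 1.5 times under median-of-ratios scaling and 27 under quantile normalization, while 0 did with a pseudocount of 0.1 or 5. Of 177 named genes, 172 kept their direction and call under median-of-ratios scaling. Most were picked by a rule that required or preferred calls held under both scalings, so this count was largely set by the choice. The number of 3 libraries an age and the read length that goes with 20 months limit every value.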
